A study of Homo sapiens with 3 samples.

Results

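Aminoacyl-tRNA synthetases join each amino acid to its matching transfer RNA. In human cells most of them exist as a cytosolic enzyme and a separate, nuclear-encoded mitochondrial enzyme that serves translation inside the organelle. Several cytosolic enzymes sit in a multisynthetase complex held together by scaffold proteins. When the endoplasmic reticulum (ER) is stressed or amino acids run short, kinases that include PERK and GCN2 phosphorylate the initiation factor eIF2, the transcription factor ATF4 is translated, and many cytosolic synthetase genes are among its described targets.

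The genes described here are 39 of the 58243 genes in the deposited tables, found by symbol: 20 cytosolic enzyme genes, 3 genes of complex scaffold proteins (AIMP1, AIMP2 and EEF1E1) and 16 mitochondrial enzyme genes whose symbols end in 2. The mitochondrial list is not a complete set. GARS and KARS, counted here as cytosolic, also supply the mitochondrial enzyme for glycine and lysine, and the cytosolic EPRS protein serves both glutamate and proline. All 39 genes had a mean of at least 50 reads, the minimum for a gene to be called measured, as did 12593 genes in all.

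The cells are labelled LoVo, a human colorectal carcinoma line, with the genotype of an inducible HRD1 knockdown. All 3 groups carried the same doxycycline-controlled (Tet-On) hairpin RNA against HRD1, the ubiquitin ligase of ER-associated degradation that SYVN1 encodes. They differed in the time with 1 µg/ml doxycycline, which was 0, 3 or 5 days, and the stated question is what ER stress from HRD1 loss does to gene expression. Each time is 1 RNA-seq library. No ratio therefore has a replicate check and none is tested: each compares a pair of libraries. Libraries with a hairpin that has no target, or with doxycycline and no hairpin, were not analysed here, so knockdown, doxycycline and time in culture cannot be told apart. The sources used here do not say whether the line is a single clone.

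The libraries held 21308785, 22068686 and 25754188 reads assigned to genes at day 0, day 3 and day 5, and the 39 genes took 0.541%, 0.583% and 0.557% of them. SYVN1 had 1212, 650 and 709 reads, a log2 ratio to day 0 of -0.88 at day 3 and -1.05 at day 5, which is the direction of the labels. Of 9 markers of colorectal epithelium, 0 reached 1 TPM (the deposited level per transcript length, scaled to a fixed sum in each library) in any library, and CDX2, which defines that epithelium, had 0 reads in all 3. Keratins of simple epithelia summed to 1296 to 1414 TPM and the mesenchymal list to 3618 to 4160 TPM. Nearly all of the mesenchymal sum was VIM, which alone had 4016, 4130 and 3588 TPM at day 0, day 3 and day 5. In the same libraries PDGFRB had 3.29, 1.73 and 1.23 TPM, and COL1A2 and THY1 had 0 reads at day 0. FN1 and COL1A1 were expressed, far below VIM, so the sum does not describe the mesenchymal list as a whole. Liver and blood genes differed between the libraries: 6 of 7 listed liver genes summed to 2, 8 and 444 reads at day 0, day 3 and day 5, while SERPINA1, the seventh, which was left out of that sum after its values were seen, had 19332, 17422 and 20571 reads, and 4 blood genes to 4, 18 and 87. Their part in the day 5 values below was not tested.

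Ratios are of total gene reads after TMM scaling, which evens out library size and composition. Square brackets hold 95% exact intervals for counting error alone. A gene is counted as higher or lower where its ratio was at least 1.2-fold and the interval left out a ratio of 1. The 1.2-fold line was chosen with earlier results of these data known, in which few of the 39 genes passed 1.5-fold. Ratios of TPM have no counting interval, so calls with TPM rest on the fold alone. In bulk RNA, a change in the share of cells that express a gene and a change in RNA per cell cannot be told apart.

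Promoter letters come first, because ATF4 binds a composite site of the C/EBP-ATF type and the synthetase genes differ in whether such letters lie near their start. Windows from 250 bases before to 50 bases after the annotated start, from RefSeq on GRCh38.p14, were found for 33 of the 39 genes; those without one were DARS, LARS, VARS, YARS, AARS2 and VARS2. Both strands were searched for TGATGNAA, the core of that composite site. It was found for 7 of 16 cytosolic genes (43.8%), for 1 of 14 mitochondrial genes (7.14%) and for 0 of 3 scaffold genes, against 2.67% of 9858 measured genes with a window and 3.62% of all 35116 windows. In 6 of the 7 cytosolic genes the letters were TGATGCAA, which 0.7% of measured genes with a window held. The 8 matches follow, each with 10 bases on either side, written 5′ to 3′ on the strand of the gene, with the match in capitals (it appears as its reverse complement where it lies on the other strand).
AARS, chr16:70289676-70289703, minus strand: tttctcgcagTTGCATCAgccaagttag
CARS, chr11:3057408-3057435, minus strand: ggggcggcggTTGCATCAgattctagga
GARS, chr7:30594835-30594862, plus strand: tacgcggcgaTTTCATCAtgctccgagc
IARS, chr9:92293693-92293720, minus strand: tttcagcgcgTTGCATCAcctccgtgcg
MARS, chr12:57488054-57488081, plus strand: ccggttccggTTGCATCAgcgagggatt
NARS, chr18:57621805-57621832, minus strand: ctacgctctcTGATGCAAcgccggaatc
TARS, chr5:33440957-33440984, plus strand: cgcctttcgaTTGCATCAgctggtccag
YARS2, chr12:32756077-32756104, minus strand: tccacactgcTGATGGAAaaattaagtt

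The cytosolic matches lay close to the start site in most genes. Counting from the start, with the base before it as -1, the match ran from -33 to -26 in GARS, from -13 to -6 in IARS, from -4 to 4 in MARS and from 3 to 10 in TARS. In AARS, the alanyl enzyme, it lay farther upstream, from -187 to -180, and the 250 bases before its start are shown because the day 3 ratio of this gene was among the highest.
AARS, chr16:70289507-70289756, minus strand: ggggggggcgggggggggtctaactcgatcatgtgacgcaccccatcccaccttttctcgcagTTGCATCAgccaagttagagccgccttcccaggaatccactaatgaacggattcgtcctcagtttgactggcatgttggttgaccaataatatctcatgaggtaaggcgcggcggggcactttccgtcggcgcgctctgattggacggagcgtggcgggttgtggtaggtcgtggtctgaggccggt
A match is a run of letters and not a measured binding site, and binding of ATF4 was not measured.

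Transcript levels per length set the groups apart at day 0. The 20 cytosolic enzymes summed to 3922, 4132 and 4011 TPM at day 0, day 3 and day 5, with medians of 177, 183 and 174 TPM. The 16 mitochondrial enzymes summed to 711, 680 and 694 TPM, with medians of 26.9, 26.8 and 25.7 TPM. FARSA, the catalytic subunit of the phenylalanyl enzyme, had the highest level at 555, 542 and 533 TPM, whereas its partner subunit FARSB was at 68.2, 73.6 and 70.3 TPM. IARS2, the mitochondrial isoleucyl enzyme, led its group with 191, 178 and 186 TPM and stood level with cytosolic IARS, which had 198, 183 and 183 TPM. Over 17 cytosolic and mitochondrial pairs for the same amino acid, the cytosolic level at day 0 was a median of 5.23 times the mitochondrial one. The range ran from 27.5 times for FARSA over FARS2 to 0.676 times for YARS over YARS2, the tyrosyl pair, in which the mitochondrial transcript was the more abundant.

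**Figure D1:**
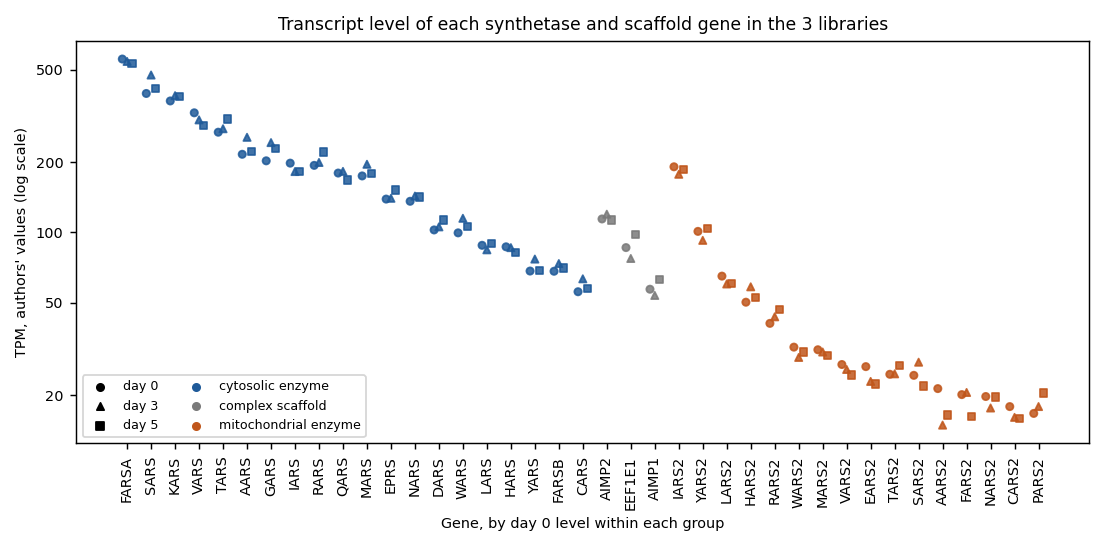
The authors' TPM (log axis) of each gene in the day 0 (circle), day 3 (triangle) and day 5 (square) libraries, 1 library per time, ordered by day 0 level within cytosolic enzymes, scaffold proteins and mitochondrial enzymes. Cytosolic enzymes run from FARSA at 555 TPM down to CARS at 55.7 TPM at day 0, and mitochondrial ones from IARS2 at 191 TPM down to PARS2 at 16.7 TPM.

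For day 3 over day 0, all 20 cytosolic enzymes were above their day 0 level with TMM scaling, by a little, and 15 of 20 with the authors' TPM. Their median log2 ratio was 0.19, with a range from 0.01 to 0.39, against 0.01 for all measured genes, of which 52% were above day 0. Intervals lay above a ratio of 1 for 18 of 20, against 25.2% of measured genes, and 7 of 20 were at least 1.2-fold higher, against 9.98% of measured genes. Cytosolic genes had a median of 4452 reads per library, against 744 for all measured genes, so their intervals are narrower. Depth therefore bears on each interval count set beside a share of measured genes, here and below. None was lower by 1.2-fold (10.7% of measured genes were), and 0 of 20 reached 1.5-fold. The size depends on the scaling. With library totals in place of TMM the median was 0.12 with 18 of 20 above and 4 called. Of all 12593 measured genes, 5043 were then above and 670 called. With TPM the cytosolic median was 0.06 with 15 of 20 above and 0 called, against 4131 and 638 of 12593. The median of all genes moved with these choices, to -0.06 and -0.08.

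The 7 called genes were GARS, SARS, AARS, WARS, CARS, YARS and MARS. GARS, the glycyl enzyme (ENSG00000106105, chromosome 7, 30594681 to 30634033, plus strand, GRCh38), had 4207 reads at day 0, 5448 at day 3 and 5841 at day 5. It was 1.31-fold higher at day 3 [1.26 to 1.36]. SARS, the seryl enzyme (ENSG00000031698, chromosome 1, 109213918 to 109238169, plus strand), had 8588, 11010 and 11179 reads, and was 1.30-fold higher at day 3 [1.26 to 1.33]. For both genes day 3 and day 5 were above day 0 after scaling, with day 3 the highest.

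AARS (ENSG00000090861, chromosome 16, 70252295 to 70289543, minus strand) had 4948, 6307 and 6280 reads and a day 3 ratio of 1.29 [1.24 to 1.34]. WARS, the tryptophanyl enzyme, which interferon also induces in many cells (ENSG00000140105, chromosome 14, 100333788 to 100376805, minus strand), had 3178, 3972 and 4181 reads and a ratio of 1.26 [1.21 to 1.33]. Uniquely placed reads made up 72.7% of the WARS total, and from them the log2 ratio was 0.29 in place of 0.34. The cysteinyl, tyrosyl and methionyl genes CARS, YARS and MARS had log2 ratios of 0.31, 0.30 and 0.29. MARS overlaps DDIT3, which encodes the stress factor CHOP, on the opposite strand. Nothing in the labels says that reads were counted by strand, so reads of the overlap cannot be assigned between them.

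At the other end of the cytosolic group, IARS and VARS were close to their day 0 level. IARS had 7511, 7475 and 8622 reads and a log2 ratio at day 3 of 0.01 [-0.04 to 0.06]. VARS, the valyl enzyme, had 9924, 10041 and 10841 reads and a log2 ratio of 0.03 [-0.01 to 0.07]. These were the only cytosolic genes whose day 3 interval held a ratio of 1, although both were counted as deeply as the genes that were higher. The remaining 11 cytosolic genes lay between LARS at 0.07 and NARS at 0.21, with every interval above 1 and none at 1.2-fold. KARS, at 0.21 [0.17 to 0.26], and NARS, at 0.21 [0.14 to 0.29], were the nearest below the 1.2-fold line.

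Mitochondrial enzymes had no common direction at day 3. Their median log2 ratio was 0.04 (-0.03 with library totals and -0.09 with TPM), with 10 of 16 above day 0 and 6 below, and a range from -0.40 to 0.33. The interval held a ratio of 1 for 12 of 16, lay above it for HARS2, SARS2 and RARS2, and lay below it for AARS2, where 20.8% of measured genes had an interval below 1. At least 1.2-fold higher were 2 of 16, HARS2 and SARS2, against 9.98% of measured genes. Mitochondrial genes had fewer reads (a median of 679 per library against 4452 for cytosolic genes), so their intervals are wider.

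HARS2, the histidyl enzyme of mitochondria (ENSG00000112855, chromosome 5, 140691426 to 140699291, plus strand), had 889, 1102 and 1149 reads. It was 1.25-fold higher at day 3 [1.15 to 1.37]. SARS2, for serine, had 407, 499 and 474 reads and a log2 ratio of 0.31 [0.12 to 0.50], but uniquely placed reads made up 30.7% of its total and alone gave 0.17. It overlaps MRPS12, a mitochondrial ribosomal protein gene, on the opposite strand. PARS2, for proline, had 199, 232 and 297 reads with a log2 ratio of 0.24 [-0.04 to 0.52], and RARS2, for arginine, had 583, 648 and 811 reads with 0.17 [0.01 to 0.33]. Day 3 was above day 0 in these genes, and for PARS2 the gap was within counting error.

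AARS2, the mitochondrial alanyl enzyme (ENSG00000124608, chromosome 6, 44299654 to 44313326, minus strand), was the 1 mitochondrial gene of 16 at least 1.2-fold lower at day 3. Of all measured genes, 10.7% were. AARS2 had 489, 365 and 452 reads, a log2 ratio of -0.40 [-0.60 to -0.21] at day 3 and -0.39 [-0.58 to -0.21] at day 5. It was lower by similar amounts in both doxycycline libraries. Unique reads, 71.1% of its total, gave -0.43 and -0.59. NARS2, for asparagine, had 378, 333 and 448 reads and a day 3 log2 ratio of -0.17 [-0.38 to 0.05], within counting error.

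**Figure D2:**
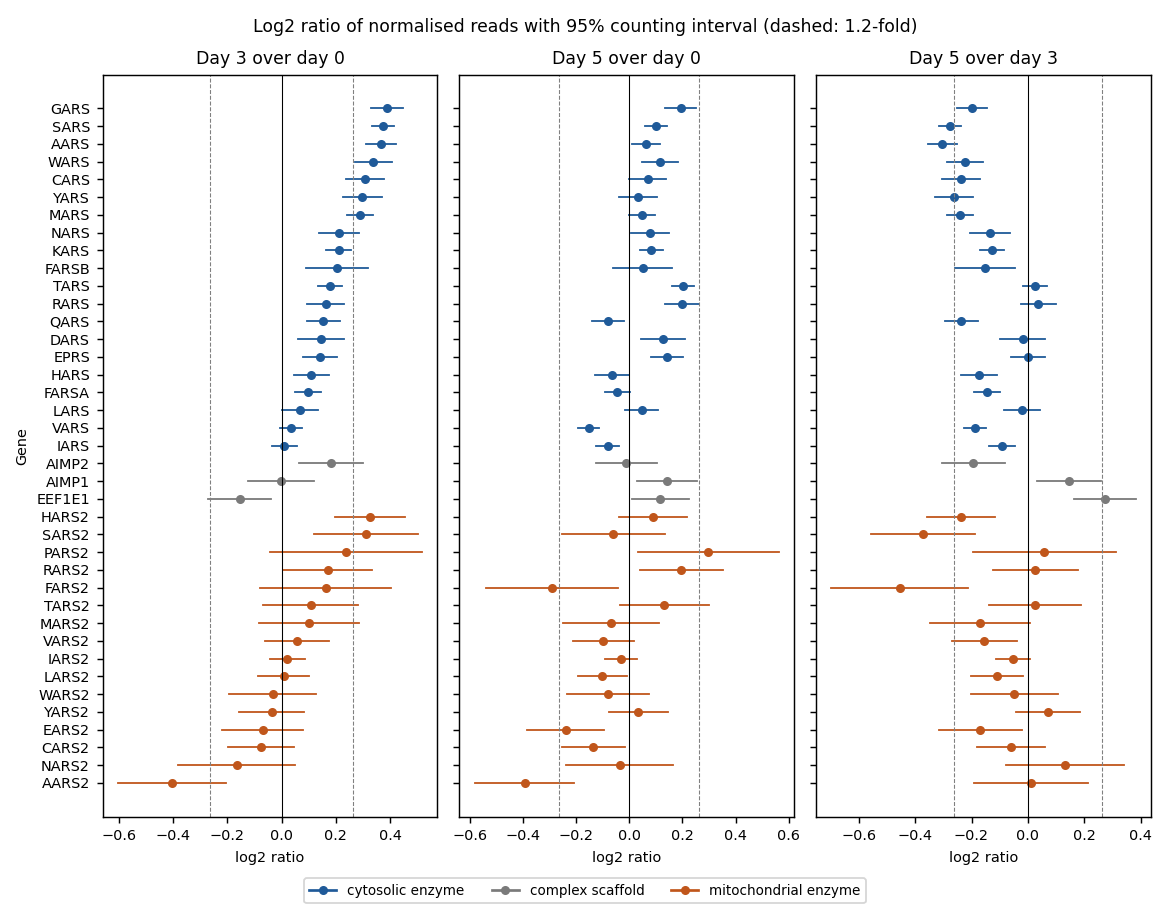
Log2 ratio of TMM-scaled reads for each gene (point) with its 95% counting interval (line) for day 3 over day 0, day 5 over day 0 and day 5 over day 3, in order of the day 3 ratio within each group; dashed lines mark 1.2-fold. In the left panel all 20 cytosolic points lie at or right of 0.01 (15 of 20 lie above day 0 with TPM), while mitochondrial points run from AARS2 at -0.40 to HARS2 at 0.33; in the right panel 17 of 20 cytosolic points lie left of 0.

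Comparing enzymes for the same amino acid removes the library scaling, since both genes of a pair are read from the same libraries. At day 3, the cytosolic gene had the larger ratio in 11 of 17 pairs, with a median log2 odds ratio of 0.06. That is smaller than the difference of 0.15 between the group medians. The interval favoured the cytosolic gene in 6 pairs and the mitochondrial gene in 1, and held 1 in 10. The widest gap was for alanine, with a log2 odds ratio of 0.77 [0.57 to 0.98], where AARS was higher and AARS2 lower. The others were CARS over CARS2 at 0.38, NARS over NARS2 at 0.38, WARS over WARS2 at 0.37, YARS over YARS2 at 0.33 and EPRS over EARS2 at 0.21. Genes with reads also overlap some of these on the opposite strand, among them AL359915.2 (1085, 958 and 1286 reads) for WARS2. DNM1L overlaps YARS2, UBFD1 overlaps EARS2 and ING1 overlaps CARS2 in the same way. Reads of such overlaps cannot be assigned between the genes.

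The histidine pair went the other way. HARS had 3692, 3936 and 4288 reads and a day 3 log2 ratio of 0.11 [0.04 to 0.17], less than that of HARS2, and the log2 odds ratio was -0.22 [-0.36 to -0.07]. The genes are neighbours transcribed in opposite directions from start sites 85 bases apart in RefSeq. The 84 bases between the start sites are shown on the plus strand, which is the direction of HARS2, because both genes share them as upstream sequence; they held no match to the motif, so no letters are in capitals.
HARS and HARS2, chr5:140691371-140691454, plus strand: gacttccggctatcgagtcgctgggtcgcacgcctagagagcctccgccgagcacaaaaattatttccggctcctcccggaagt
In the gene models of the files the pair overlaps on opposite strands, so reads of the overlap cannot be assigned between them.

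**Figure D3:**
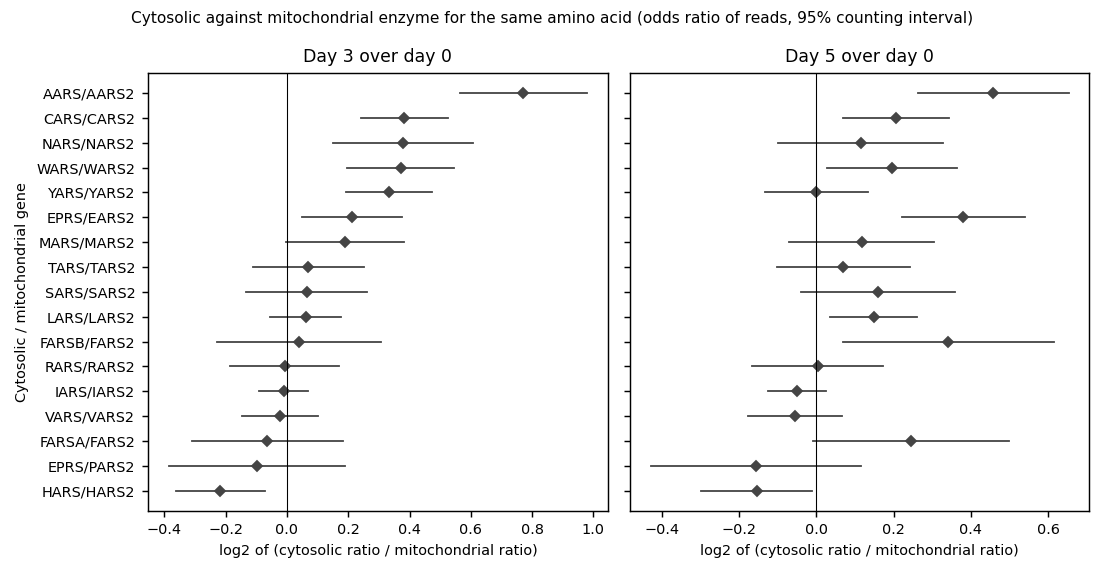
Log2 odds ratio (cytosolic ratio over mitochondrial ratio) for each of 17 pairs, with its 95% counting interval, for day 3 over day 0 and day 5 over day 0, in order of the day 3 value; points right of 0 mean a larger ratio for the cytosolic gene. Alanine stands farthest right at day 3 (0.77) and histidine is the 1 pair whose day 3 interval lies wholly left of 0 (-0.22).

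Day 5 over day 0 asked whether the difference lasted with longer induction. For cytosolic enzymes it was small: the median log2 ratio was 0.07, with 15 of 20 above day 0 against 51.1% of measured genes. The intervals of 11 lay above 1 (22.8% of measured genes) and those of 4 below (22.4%), and 0 of 20 were 1.2-fold higher, against 9.4%. TARS, RARS and GARS were the highest. TARS, the threonyl enzyme, had 7685, 8589 and 10742 reads and a day 5 log2 ratio of 0.20 [0.16 to 0.24]. RARS, the arginyl enzyme, had 3393, 3753 and 4730 reads and a ratio of 0.20 [0.13 to 0.26]. GARS was at 0.19 [0.14 to 0.25]. VARS, at -0.15 [-0.19 to -0.11], and IARS, at -0.08 [-0.13 to -0.04], were the lowest.

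Mitochondrial enzymes had a median of -0.07 at day 5, with 5 of 16 above day 0 and 11 below. PARS2 was at least 1.2-fold higher, with a log2 ratio of 0.30 [0.03 to 0.56], where 9.4% of measured genes were. AARS2 and FARS2 were at least 1.2-fold lower, where 7.82% of measured genes were. FARS2, for phenylalanine, had 272, 301 and 270 reads and a log2 ratio of -0.29 [-0.54 to -0.04]. RARS2 was at 0.20 [0.04 to 0.35]. TARS2, with 522, 556 and 695 reads, was at 0.13 [-0.03 to 0.30]. Among pairs the cytosolic gene had the larger ratio in 12 of 17, with a median log2 odds ratio of 0.12.

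Between day 3 and day 5 the cytosolic enzymes were lower again. The median log2 ratio of day 5 over day 3 was -0.16, with 3 of 20 above day 3, against 50% of measured genes, and the intervals of 15 below 1, against 26.1% of measured genes. AARS and SARS were at least 1.2-fold lower, at -0.30 [-0.35 to -0.25] and -0.28 [-0.31 to -0.24], against 10.9% of measured genes. YARS, with 2845, 3454 and 3538 reads, lay on the line at -0.26 [-0.33 to -0.19] and just missed it. With library totals the median was -0.09 and with TPM -0.07, while the all-gene medians were 0.07 and 0.09.

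By intervals, 13 of 20 cytosolic genes were higher at day 3 and lower again at day 5, against 15% of measured genes. Another 4, DARS, EPRS, RARS and TARS, were above day 0 at both times with a day 5 over day 3 interval that held 1, against 6.19% of measured genes. DARS and EPRS, for aspartate and for glutamate and proline, had day 5 log2 ratios of 0.13 and 0.14. Of the 4, DARS, EPRS and RARS code for enzymes of the multisynthetase complex. IARS, LARS and VARS had other patterns. With TMM scaling of total reads, 3 of all 39 genes (HARS, QARS and EEF1E1) were above day 0 at 1 time and below it at the other, against 6.23% of measured genes.

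Mitochondrial enzymes had a median of -0.06 for day 5 over day 3, with 10 of 16 below and 6 intervals below 1, against 26.1% of measured genes. The median was 0.02 with library totals and 0.03 with TPM, on the other side of 0. FARS2 and SARS2 were at least 1.2-fold lower, at -0.45 [-0.70 to -0.21] and -0.37 [-0.56 to -0.19], against 10.9% of measured genes. HARS2 was at -0.24 [-0.36 to -0.12]. The pattern of the 13 cytosolic genes was found in 2 of 16, HARS2 and SARS2, near the 15% of measured genes that had it.

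The 3 scaffold genes did not move as 1 group. AIMP2 had 1110, 1245 and 1338 reads and log2 ratios of 0.18 [0.06 to 0.30] at day 3 and -0.01 [-0.13 to 0.10] at day 5. AIMP1 had 1118, 1103 and 1500 reads and log2 ratios of -0.00 [-0.12 to 0.12] and 0.14 [0.03 to 0.26]. EEF1E1, also known as AIMP3, had 1270, 1127 and 1673 reads and log2 ratios of -0.16 [-0.27 to -0.04] and 0.12 [0.01 to 0.22]. With TMM scaling of total reads, AIMP2 was thus highest at day 3, and AIMP1 and EEF1E1 at day 5. Uniquely placed reads made up 30.7% of the EEF1E1 total and reversed its day 5 over day 3 log2 ratio from 0.27, which counts as higher (12.4% of measured genes were), to -0.17. Across the processing settings its ratios to day 0 also changed sign, reaching 0.02 at day 3 and -0.15 at day 5.

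Splits of the cytosolic enzymes by role gave different sizes at day 3. The 8 enzymes of the multisynthetase complex had a median log2 ratio of 0.15 with 1 of 8 at least 1.2-fold higher (MARS), and the 12 outside it had a median of 0.25 with 6 of 12, against 9.98% of measured genes. The 12 genes widely listed as ATF4-responsive had a median of 0.29 with 7 of 12 at least 1.2-fold higher, and the other 8 had 0.15 with 0 of 8. With TPM none of these genes was called, and the medians were 0.03 and 0.14 in and outside the complex and 0.17 and 0.03 for the ATF4-listed and other genes. With TMM scaling at day 5 the medians were 0.07 for the ATF4-listed and 0.00 for the other genes, and 0.07 both in and outside the complex. The lists overlap with what had been seen in these libraries before and are given as a description.

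Genes with and without the promoter letters overlapped. The 7 cytosolic genes with a match had day 3 log2 ratios from 0.01 (IARS) to 0.39 (GARS), with a median of 0.29. The 9 with a window and no match had ratios from 0.10 to 0.38, with a median of 0.16, and SARS and WARS, 2 of the highest genes, were among them. Across all measured genes the median was -0.00 for the 263 genes with a match and 0.02 for the 9595 without.

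Genes around the synthetases were read from lists of the same pathways. ATF4 itself had 5593, 7184 and 8091 reads, log2 ratios of 0.38 [0.33 to 0.43] at day 3 and 0.25 [0.20 to 0.30] at day 5. HSPA5, the ER chaperone BiP, had 23137, 37668 and 38151 reads and log2 ratios of 0.72 [0.70 to 0.74] and 0.44 [0.42 to 0.46]. Of 28 listed genes of the ATF4 amino acid response 27 were measured, and at day 3 their median log2 ratio was 0.35, with 17 at least 1.2-fold higher and 1 lower, SLC7A11, against 9.98% and 10.7% of measured genes. With TPM the median was 0.21, with 13 higher and 2 lower by the fold alone, against 638 and 2625 of 12593 measured genes. The TMM median of 0.35 is larger than the 0.19 of the cytosolic synthetases. With TMM, 7 of the 27 reached 1.5-fold (1.29% of measured genes did) where 0 of 20 synthetases did.

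DDIT4, an inhibitor of mTORC1 signalling, was highest at 1.05 with 1001, 2053 and 1807 reads. CTH, an enzyme of cysteine synthesis, had 140, 256 and 273 reads and log2 ratios of 0.89 at day 3 and 0.68 [0.38 to 0.99] at day 5. ASNS, asparagine synthetase, had 1189, 2136 and 2044 reads and log2 ratios of 0.86 [0.76 to 0.97] at day 3 and 0.50 [0.40 to 0.61] at day 5, although 4.10% of its total was uniquely placed. These genes and the next were highest at day 3 after scaling. TRIB3, an inhibitor of ATF4 and itself a target, had 1292, 1832 and 1796 reads and log2 ratios of 0.52 [0.42 to 0.62] and 0.19 [0.09 to 0.30]. CHAC1, which degrades glutathione, had 228, 360 and 324 reads and log2 ratios of 0.67 [0.43 to 0.92] and 0.23 [-0.02 to 0.48]. DDIT3, with 55.1% of its total uniquely placed, had 427, 676 and 687 reads and log2 ratios of 0.68 [0.50 to 0.86] and 0.40 [0.23 to 0.58]. At day 5 the list had a median of 0.20 with 9 of 27 higher, against 9.4% of measured genes, and 0 lower, against 7.82%. For day 5 over day 3 its median was -0.21 with 10 lower, against 10.9%, and 2 higher, against 12.4%. The cytosolic synthetases had -0.16 for that comparison, and the cytosolic translation factors, described next, had -0.14. All these lists are read from the same libraries.

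Other genes of translation had smaller ratios at day 3, and 9.98% of all measured genes were at least 1.2-fold higher. Of 19 genes of tRNA processing and export, 3 were at least 1.2-fold higher (PTRH2, DTD1 and AARSD1, with 22.1% of AARSD1 reads uniquely placed) and 0 were lower, with a median of 0.12. XPOT, the tRNA exporter, had 6711, 6727 and 8724 reads and log2 ratios of 0.02 [-0.03 to 0.07] at day 3 and 0.10 [0.05 to 0.14] at day 5. Of 15 cytosolic translation factors 2 were higher (EEF1G, with 3.76% of reads uniquely placed, and EIF5A), with a median of 0.12. Of 21 mitochondrial translation factors 2 were higher (RMND1 and LONP1), also with a median of 0.12. The 3 medians were each 0.05 with library totals and -0.02, -0.01 and 0.00 with TPM. At day 5 the medians of the 3 lists were 0.09, 0.04 and 0.07. For day 5 over day 3 they were -0.004, -0.14 and -0.01. The cytosolic translation factors were thus near the -0.16 of the cytosolic synthetases, with 9 of 15 intervals below 1, against 26.1% of measured genes.

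**Figure D4:**
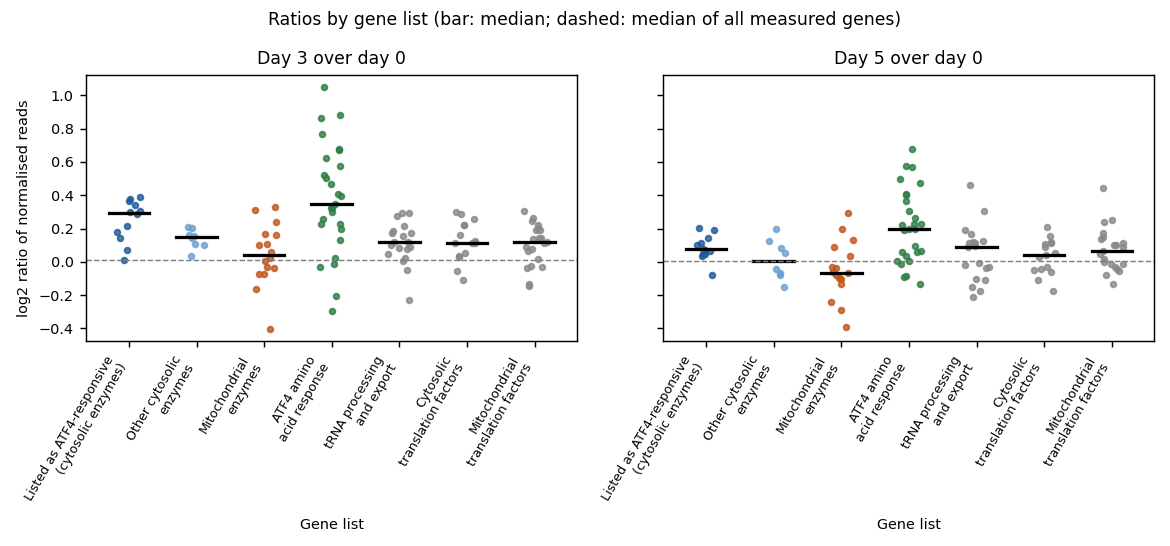
Log2 ratios of TMM-scaled reads for day 3 and day 5 over day 0, 1 point per gene, for the cytosolic enzymes listed as ATF4-responsive, the other cytosolic enzymes, the mitochondrial enzymes and the 4 related lists; bars are medians and the dashed line is the median of all measured genes. At day 3 the medians are 0.29, 0.15 and 0.04 for the 3 synthetase groups and 0.35 for the ATF4 amino acid response, and at day 5 they are 0.07, 0.00, -0.07 and 0.20.

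Reads in introns, which come largely from unspliced RNA, did not follow the exon reads. Summed over the 20 cytosolic enzymes, intron reads were 2916, 3018 and 4101 at day 0, day 3 and day 5, a log2 ratio of 0.07 [-0.01 to 0.14] at day 3 and 0.21 [0.14 to 0.28] at day 5. Exon reads were 94082, 107064 and 117510, with log2 ratios of 0.20 and 0.04. Exon reads were thus highest at day 3 and intron reads at day 5. Over all genes, too, intron reads were highest at day 5, with log2 ratios of -0.04 and 0.15. They made up 6.01%, 5.59% and 6.68% of all gene reads at day 0, day 3 and day 5. The day 5 intron value is therefore not particular to the synthetases. SARS alone gave 1113, 1290 and 1544 of the cytosolic intron reads. For the 16 mitochondrial enzymes intron reads were 795, 600 and 919, a log2 ratio at day 3 of -0.39 [-0.54 to -0.23], while their exon reads were at 0.05.

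The groups also differed in features that can bear on read counts. The cytosolic transcripts had a median GC content of 47.7%, near the 47.9% of all measured genes, and the mitochondrial ones 51.2%. Median exon lengths were 5079 and 3628 bases, against 4914 for all. With smooth trends on length and GC content removed, the day 3 medians were 0.18 for cytosolic and 0.02 for mitochondrial enzymes, and with a trend on expression removed too they were 0.13 and 0.02, with the cytosolic median the higher of the pair in both.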

How the data were processed

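Per the labels' protocols, RNAiso Plus served for RNA extraction and a SMARTer mRNA kit for the libraries, 1 for each of 3 times. Per the file headers, the authors deposited for each gene unique and total read counts, exon and intron read counts, a TPM value and exon length. Which aligner and which counter were run is not given in the sources used here, and molecular identifiers are not mentioned. According to the submitters' processing notes the build is mm10, a mouse build; however, the gene identifiers are human, and 97.6% of the genes found in GENCODE 29, and 36 of the 39 described here, have its start and end, so coordinates are given as GRCh38.

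Total counts were scaled with TMM factors of 1.01, 0.968 and 1.02 (edgeR 4.0.16, R 4.3.3). Log2 ratios used a prior count of 0.5 and exact conditional (Clopper-Pearson) intervals at 95%. A count of 3 reads corresponds to 0.139, 0.140 and 0.114 CPM after scaling. Pairs were compared by conditional odds ratios. Python 3.11.15, scipy 1.17.1 and statsmodels 0.14.6 (lowess, span 0.3) were used, with matplotlib for the figures. As alternatives, scaling was done by library totals or by DESeq2 1.42.0 size factors, ratios were formed from TPM (0.5 added) and from unique or exon reads, the prior count was raised to 5, the read minimum was set to 10 or 200 or dropped, library sizes left out mitochondrial genes and the 20 most abundant ones, trends were removed, and the fold was changed. Ratios, intervals, calls and trend removal were run on simulated counts that held counting error only, without TMM scaling. Group medians, pair odds ratios and the promoter search were not tested in that way. A further table with 3 sample columns was not used.

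The members, the lists and the 1.2-fold line were chosen with earlier results of these data known. The genes named with values are the 4 highest and 2 lowest day 3 ratios, the 3 highest and 2 lowest day 5 ratios and the 3 lowest day 5 over day 3 ratios of each group, SYVN1, ATF4, HSPA5, DDIT3, ASNS, TRIB3, CHAC1 and XPOT, and up to 3 high genes of each related list.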

Additional observations from a re-analysis of the deposited data

Results flagged for a closer look

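Of the 39 genes, 3 lay above day 0 in 1 doxycycline library and below it in the other, with both intervals leaving out a ratio of 1, as did 6.23% of measured genes. HARS had a day 5 over day 3 log2 ratio of -0.17 and QARS, the glutaminyl enzyme, of -0.24: both were above day 0 at day 3 (0.11 and 0.15) and below it at day 5 (-0.06 and -0.08). These directions depend on the processing: at day 3 HARS was at -0.01 and QARS at 0.02 with TPM, and at day 5 QARS was at 0.01 with expression, length and GC trends removed. EEF1E1 went the other way, with a day 5 over day 3 log2 ratio of 0.27. With 1 library per time these differences were not tested, and unique reads gave -0.17 for EEF1E1. The EEF1E1 ratios to day 0 changed sign across the settings too, reaching 0.02 at day 3 and -0.15 at day 5.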

How the results depend on the processing

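Of 165 recomputed group values, 10 moved past the limit set for them: for a count 1.5 times, and for a median the typical counting error of a single gene of the group, which is wider for mitochondrial genes. Within that limit the mitochondrial median still changed sign, at day 3 (0.04) to -0.03 with library totals and -0.09 with TPM and for day 5 over day 3 (-0.06) to 0.02 and 0.03. The cytosolic median at day 3 (0.19) was 0.12 with library totals and 0.062 with TPM, and the day 5 over day 3 median (-0.16) was -0.089 with library totals, -0.069 with TPM and -0.10 with expression, length and GC trends removed. Of the 12593 measured genes, 1257 were at least 1.2-fold higher at day 3 with TMM, 670 with library totals and 638 with TPM. The count of cytosolic genes at least 1.2-fold higher at day 3 (7) was 4 with library totals, 0 with TPM, 15 at 1.1-fold and 0 at 1.5-fold, and the day 5 count (0) was 4 at 1.1-fold. Other folds change the count by construction, and for the rest the cause was not tested. The day 3 difference between group medians (0.15) ranged from 0.06, as paired odds ratios, to 0.17. Of 1050 recomputed gene ratios, 877 were labelled the same and 133 moved. Of the others, 36 at 1.2-fold or more were no longer so, 3 became so, and 1 reversed (EEF1E1, day 5 over day 3, -0.17 from unique reads). The label reversed does not cover every change of sign among smaller ratios. For example, FARSA, at -0.14 for day 5 over day 3, reached 0.14 under another setting. Removing the members with under 90% uniquely placed reads was chosen after seeing the data and gave 0.18 and 0.02 for the cytosolic and mitochondrial medians at day 3. MARS2 has no uniquely placed reads and was left out of the unique-read setting. No paired analysis was possible because each group is 1 library. Depth limits the mitochondrial genes most: PARS2, with 199 to 297 reads, had an interval of -0.04 to 0.52 at day 3.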
